A study of Mus musculus with 12 samples.

Results

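Interferon-stimulated genes were followed as a list of 36 genes that interferons are known to switch on. They fall into 29 type I antiviral genes (effectors, nucleic acid sensors and transcription factors) and 7 GTPase genes that respond above all to interferon gamma. A gene counted as measured when its symbol was named by a probe set of the array, and 34 of the 36 were (28 type I antiviral genes and 6 GTPases), out of 19505 named genes and 22206 probe sets. Ifi44 and Gbp5 were named by no probe set and have no value here. The RNA came from whole kidneys of mice aged 16 weeks, with 3 samples in each of 4 groups. Wild type mice received vehicle. The other groups were hemizygous for a nonsense allele (G5X) of COL4A5, which encodes a chain of the type IV collagen of the glomerular basement membrane and whose loss causes X-linked Alport syndrome. These Alport mice received vehicle, losartan (an angiotensin receptor blocker) or metformin (an antidiabetic drug). The drugs were dissolved in the drinking water. Losartan was dosed at 125 µg/mL and then at 250 µg/mL, and metformin at 2.5 mg/mL and then at 5 mg/mL. The first dose is labelled for weeks 6 to 11 and the later dose for weeks 12 to 20, which runs past the stated age at collection. The labels also say that losartan was co-administered without naming the partner drug, while the sample titles name losartan alone.

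Interferons are secreted by cells that have sensed foreign or misplaced nucleic acid, or, for interferon gamma, by activated T cells and natural killer cells. Type I interferons bind the receptor chains Ifnar1 and Ifnar2 and act through a DNA element called the ISRE, to which STAT2 and IRF9 are brought, while interferon gamma binds Ifngr1 and Ifngr2 and acts through an element called GAS. The genes behind these elements encode proteins that block viral translation, budding and genome copying, sensors and factors that amplify the response, and GTPases that attack vacuoles holding microbes. In kidney both resident tubule cells and infiltrating leukocytes can express them.

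All values are log2 signals deposited per probe set, and each measured gene had 1 probe set. A difference in signal between genes reflects their probes too and is not read as a difference in abundance. The median signal of the 12 samples lay between 5.88 and 6.065 and the lower quartile between 4.18 and 4.25, and the correlation across all probe sets was 0.990 to 0.994 within groups and 0.975 to 0.993 between them. Col4a5 read 5.06, 5.83 and 5.40 in the wild type samples and 4.09 to 4.97 in the 9 Alport samples, with no overlap. The proximal tubule markers averaged 15.86 to 16.90 in all samples, so the defining genes of kidney were present. Whether the replicates are separate animals is not stated, so each p-value rests on sample-to-sample spread alone, possibly technical. In whole tissue, fewer cells of a type and less RNA per cell cannot be told apart.

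The promoters show what the list shares beside its name. RefSeq windows of 300 bases (250 before to 50 after each annotated start, build GRCm38.p6) were at hand for 28 of the 36 genes. The letters GAAANNGAAA, the core of the ISRE, were searched on both strands and occurred in 17 of these 28 genes (60.7%), against 1079 of all 27025 genes in the table (4.0%). A gene with several annotated starts counted if any of its windows held the core, with 35 windows for the 28 genes and 32851 in the whole table. The core was in 6 of the 6 GTPase genes with a window and in 11 of 22 type I antiviral genes (50%). The GAS core TTCNNNGAA, which reads the same on both strands in its fixed letters, occurred in 9 of 28 (32.1%) against 9.6% of all genes. ISRE cores overlapped one another in 5 genes, and a GAS core overlapped an ISRE core in 1, Bst2.

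The 160 bases just before the start site are shown for 8 genes, with ISRE cores in capitals, to let the eye compare genes that rose in Alport kidney with genes that did not. Ifit3 lies at chr19:34583369-34583528 (plus strand), Isg15 at chr4:156200819-156200978 (minus strand), Bst2 at chr8:71537473-71537632 (minus strand) and Gbp3 at chr3:142559884-142560043 (plus strand), and all of these rose. Gbp3 and, further below, Irf1 each have another annotated start whose window holds neither motif. For both genes the start shown was picked because its window holds a motif.
Ifit3: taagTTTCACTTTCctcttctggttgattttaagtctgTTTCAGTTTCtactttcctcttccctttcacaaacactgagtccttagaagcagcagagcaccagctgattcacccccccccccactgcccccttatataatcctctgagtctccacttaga
Isg15: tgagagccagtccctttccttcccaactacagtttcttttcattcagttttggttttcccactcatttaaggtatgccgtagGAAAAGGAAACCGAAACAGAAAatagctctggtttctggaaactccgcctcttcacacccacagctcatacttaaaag
Bst2: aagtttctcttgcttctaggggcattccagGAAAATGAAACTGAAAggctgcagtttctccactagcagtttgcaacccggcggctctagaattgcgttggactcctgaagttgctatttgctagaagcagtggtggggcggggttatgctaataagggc
Gbp3: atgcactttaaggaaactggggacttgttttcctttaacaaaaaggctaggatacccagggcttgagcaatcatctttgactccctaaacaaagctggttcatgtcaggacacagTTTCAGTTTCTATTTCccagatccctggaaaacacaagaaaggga
In Ifit3 the cores start 156 and 122 bases before the start site, in Isg15 they form an overlapping run of 3 that starts at 78, and in Gbp3 an overlapping pair starts at 45. Igtp at chr11:58199396-58199555 (plus strand) and Oas1a at chr5:120907526-120907685 (minus strand) carry the same core, within 34 bases of the start site. They had the smallest absolute test statistics of the list in Alport vehicle against wild type.
Igtp: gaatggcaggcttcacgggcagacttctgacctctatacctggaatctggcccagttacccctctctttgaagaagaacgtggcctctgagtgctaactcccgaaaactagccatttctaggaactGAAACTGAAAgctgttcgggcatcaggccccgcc
Oas1a: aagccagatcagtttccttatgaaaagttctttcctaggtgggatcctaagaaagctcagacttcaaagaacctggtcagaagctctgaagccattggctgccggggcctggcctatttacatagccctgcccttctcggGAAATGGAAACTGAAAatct
The last pair rose without an ISRE core. Irf1 at chr11:53769854-53770013 (plus strand) is shown with its GAS core in capitals, 90 bases before the start site, and Irf7 at chr7:141266425-141266584 (minus strand) holds neither motif in its window.
Irf1: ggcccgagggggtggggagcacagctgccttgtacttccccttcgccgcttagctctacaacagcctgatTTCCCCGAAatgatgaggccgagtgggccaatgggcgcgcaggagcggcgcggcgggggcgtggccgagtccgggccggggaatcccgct
Irf7: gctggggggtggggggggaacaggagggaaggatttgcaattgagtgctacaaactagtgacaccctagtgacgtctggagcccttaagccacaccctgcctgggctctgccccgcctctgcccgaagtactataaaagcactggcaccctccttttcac
Among the listed genes with a window, the ISRE core was in 7 of 13 that rose in Alport vehicle (53.8%) and in 9 of 13 that were measured and not called (69.2%). A match is a description of letters and not of a bound site, and no match says only that these letters are not in this window.

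**Figure D1:**
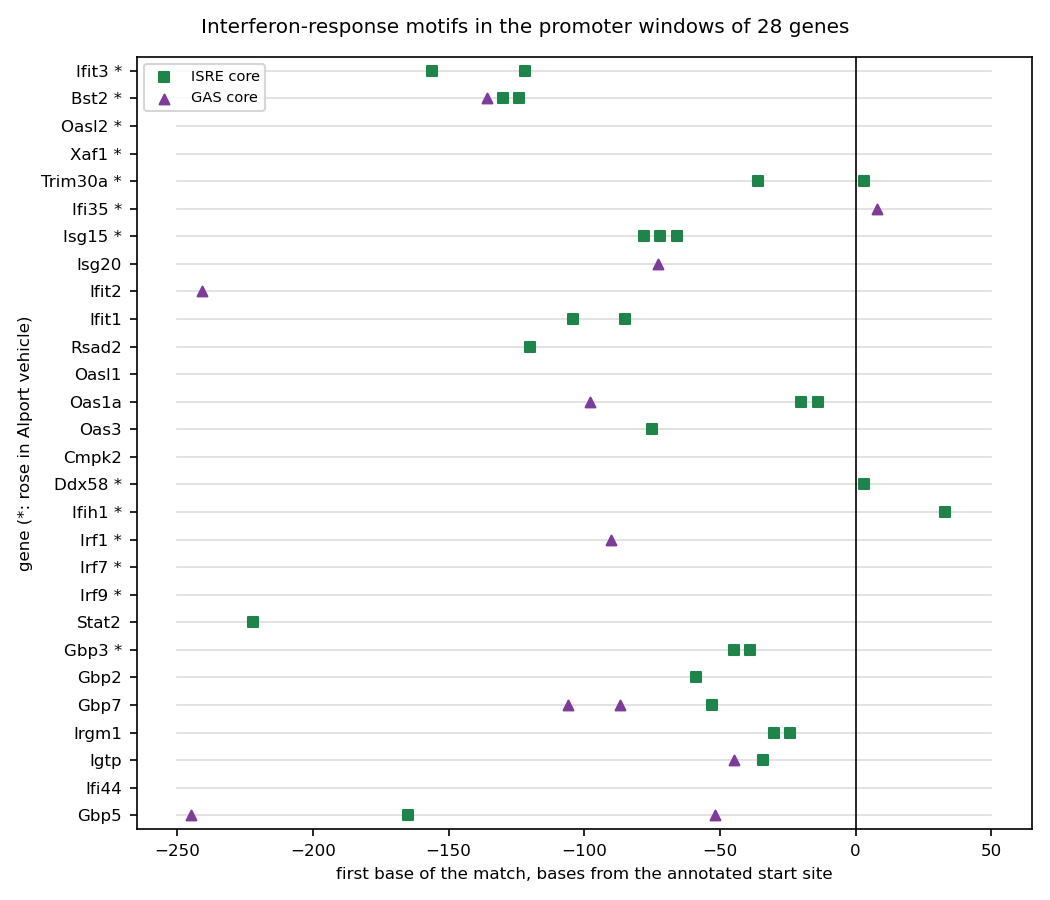
Positions of ISRE cores (squares) and GAS cores (triangles) in the promoter windows of 28 listed genes, in bases from the annotated start site (0), with genes that rose in Alport vehicle starred and all windows of a gene drawn on 1 line. Isg15 holds 3 ISRE cores in a run, all 6 GTPase genes hold at least 1, and starred and unstarred genes both include windows with none.

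In Alport vehicle kidneys 15 of the 34 measured genes rose against wild type and none fell, at a limma adjusted p under 0.05 over all 22206 probe sets. The background of this comparison was 8.43% of probe sets called up. The unadjusted p was under 0.05 for 23 of the 34. The share of all probe sets under that cut was not counted, here or for the later comparisons. It is at least the 16.1% that were called in either direction, so these counts have no full baseline. Of the 34 genes 31 lay above 0, and in 19 (of all probe sets 14.2%) every Alport vehicle sample exceeded every wild type sample. The median log2 change of the list was 0.64, against -0.03 for all probe sets. Among the type I antiviral genes 14 of 28 rose with a median of 0.64, and among the GTPases 1 of 6 rose with a median of 0.74. The genes that rose spanned folds from 1.53 (Dhx58) to 3.53 (Gbp3), while several classical antiviral genes, Rsad2, Oas1a and Ifit1 among them, were not called. The count was 7 without Alport vehicle sample 3 and 8 without wild type sample 3. Over all 22206 probe sets the up calls went from 1871 to 1453 and 1419 in these fits. Gbp3, Ifit3, Irf1, Bst2, Xaf1 and Mx2 were called under every alternative that was run. Centring each sample on its median moved the median of all probe sets to -0.17 and that of the list to 0.50, with 11 of 34 called, and the share of all calls that were up went from 52.2% to 33.8%.

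**Figure D2:**
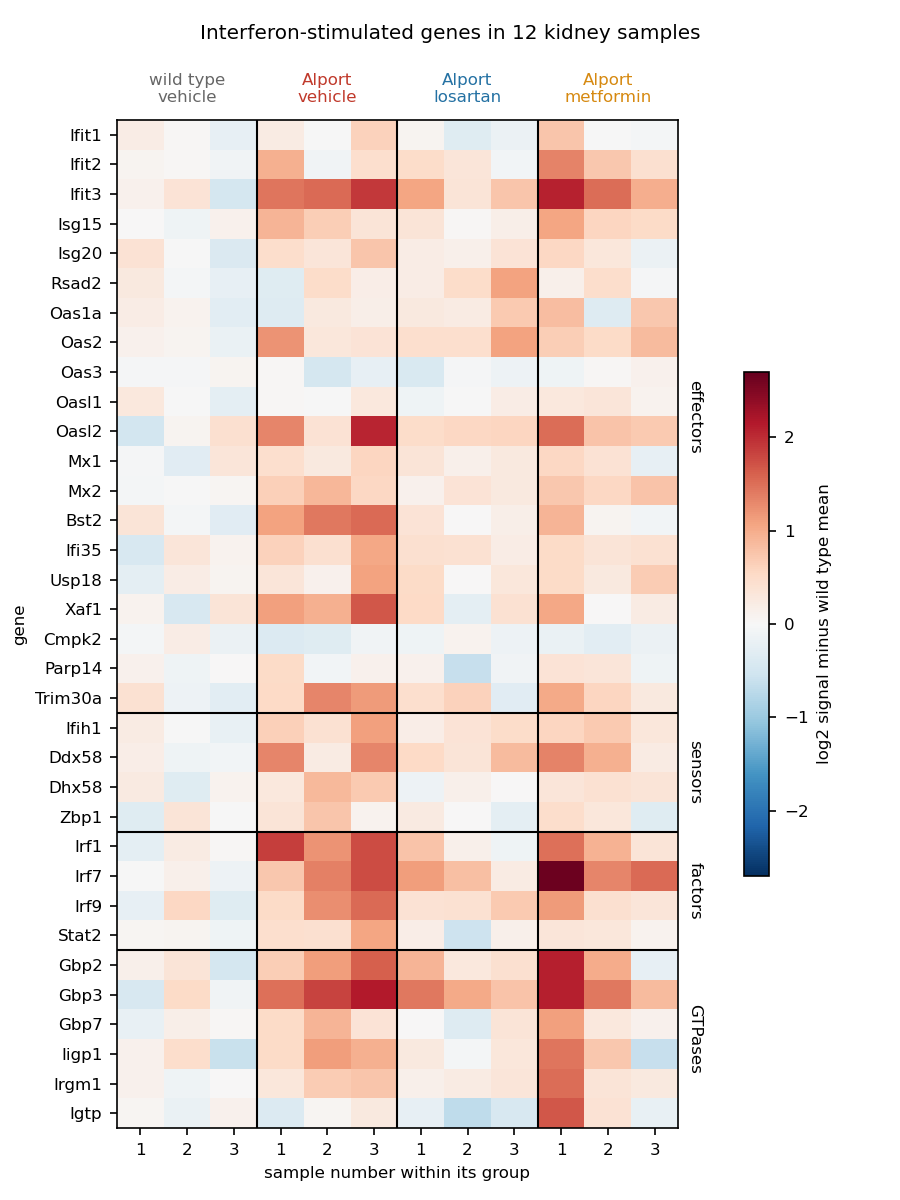
Log2 signal of the 34 measured genes in the 12 samples, as the difference from each gene's wild type mean (colour, red above and blue below), with genes in rows by role and samples in columns by group. Ifit3, Irf1 and Gbp3 are red in every Alport vehicle sample. Metformin sample 1 is the highest of all 12 samples in 5 of the 6 GTPases, with Gbp3 the exception. It is also the highest in the type I antiviral genes Irf7, Ifit1, Ifit2, Ifit3, Isg15, Oas1a and Ddx58.

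Of the 20 antiviral effectors, 8 rose. Ifit3, which binds viral RNA together with its relatives, read 9.07, 9.32 and 8.48 in wild type, 10.41, 10.48 and 10.87 in Alport vehicle, 10.03, 9.31 and 9.70 under losartan and 11.04, 10.46 and 9.93 under metformin. Every Alport vehicle sample lay above every wild type sample, and the losartan samples lay below every Alport vehicle sample. The change from wild type to Alport vehicle was 1.63 ± 0.28 (log2, SE, limma adjusted p = 0.000644), or 3.10-fold. Its near-identical neighbour Ifit3b, outside the list, read 1.69 higher in Alport vehicle (limma adjusted p = 0.000428), and the array may not separate the pair.

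Bst2 encodes tetherin, a membrane protein that holds budding virions on the cell. It read 8.80, 8.40 and 8.13 in wild type, 9.52, 9.86 and 9.97 in Alport vehicle, 8.81, 8.46 and 8.60 under losartan and 9.36, 8.52 and 8.37 under metformin. The Alport vehicle samples stood above all other 9 samples, and the samples of both drug groups overlapped with wild type. The rise was 1.34 ± 0.24 (log2, SE, limma adjusted p = 0.00116).

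Mx2 encodes a dynamin-like GTPase against incoming viruses. Its signal was 5.81, 5.85 and 5.91 in wild type, 6.49, 6.75 and 6.42 in Alport vehicle, 5.98, 6.22 and 6.12 under losartan and 6.59, 6.41 and 6.63 under metformin. The wild type samples were the lowest and tightest, losartan lay between them and Alport vehicle without overlap, and metformin overlapped with Alport vehicle. The rise in Alport vehicle was 0.70 ± 0.16 (log2, SE, limma adjusted p = 0.00542).

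Xaf1 encodes an interferon-induced protein that promotes apoptosis. It read 5.71, 5.18 and 5.97 in wild type, 6.72, 6.58 and 7.30 in Alport vehicle, 6.16, 5.35 and 6.04 under losartan and 6.67, 5.62 and 5.85 under metformin. Alport vehicle was above wild type and losartan in every sample, while metformin sample 1 reached into the Alport vehicle range. The rise was 1.25 ± 0.29 (log2, SE, limma adjusted p = 0.00741).

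The other effectors that rose were Oasl2 at 1.26 (limma adjusted p = 0.0158), Trim30a at 1.00 (limma adjusted p = 0.0199), Ifi35 at 0.70 (limma adjusted p = 0.0289) and Isg15 at 0.65 (limma adjusted p = 0.0301). Isg15, the ubiquitin-like modifier that is joined to target proteins during the response, read 3.80, 3.68 and 3.90 in wild type, 4.72, 4.46 and 4.14 in Alport vehicle, 4.14, 3.82 and 3.96 under losartan and 4.86, 4.37 and 4.31 under metformin. It was below the lower quartile of all probe sets in 7 of 12 samples, so its fold change of 1.57 is uncertain. In Oasl2 the groups overlapped, since Alport vehicle sample 2 read 6.30 and wild type sample 3 read 6.33. Among the 12 effectors that were not called, the changes ran from -0.27 (Cmpk2, which supplies nucleotides) to 0.63 (Oas2, a sensor of double-stranded RNA that makes the activator of RNase L).

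Several of the uncalled effectors are genes often used to read a type I response. Rsad2 (viperin, an antiviral radical enzyme) read 7.78, 7.46 and 7.30 in wild type and 7.18, 8.0 and 7.69 in Alport vehicle, a change of 0.11 with overlapping groups. Ifit1 read 5.33, 5.16 and 4.92 against 5.35, 5.12 and 5.75, a change of 0.27, also overlapping. Oas1a read 4.78, 4.68 and 4.30 in wild type, 4.24, 4.86 and 4.75 in Alport vehicle, 4.85, 4.81 and 5.30 under losartan and 5.42, 4.24 and 5.31 under metformin, and the change in Alport vehicle was 0.03 ± 0.27 (log2, SE, limma adjusted p = 0.964). The losartan samples of Oas1a lay just above the wild type samples, and the other pairs of groups overlapped. Ifit2 changed by 0.44, Mx1 by 0.43, Isg20 by 0.52, Usp18 (which removes ISG15 from proteins) by 0.51 and Parp14 by 0.18, none of them called.

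Oas3 and Oasl1 were below the lower quartile in all 12 samples. Oas3 read 3.44, 3.44 and 3.55 in wild type, 3.50, 3.01 and 3.25 in Alport vehicle, 3.06, 3.45 and 3.34 under losartan and 3.37, 3.51 and 3.60 under metformin. Oasl1 read 2.97, 2.67 and 2.43 in wild type, 2.72, 2.68 and 2.98 in Alport vehicle, 2.58, 2.68 and 2.90 under losartan and 2.98, 3.01 and 2.79 under metformin. For both, Alport vehicle overlapped with wild type, and neither was called.

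Of the 4 nucleic acid sensors 3 rose. Ifih1 (MDA5, a sensor of long double-stranded RNA) read 8.60, 8.36 and 8.17 in wild type, 9.01, 8.78 and 9.48 in Alport vehicle, 8.55, 8.75 and 8.87 under losartan and 8.96, 9.08 and 8.68 under metformin. Alport vehicle stood above wild type in every sample, by 0.71 ± 0.20 (log2, SE, limma adjusted p = 0.0209), and overlapped with both drug groups. Ddx58 (RIG-I, a sensor of RNA ends) read 8.41, 8.12 and 8.17 in wild type, 9.56, 8.46 and 9.55 in Alport vehicle, 8.78, 8.59 and 9.08 under losartan and 9.58, 9.20 and 8.45 under metformin. Alport vehicle sample 2 was only just above wild type, and the rise was 0.96 ± 0.30 (log2, SE, limma adjusted p = 0.0358). Dhx58, which tunes both sensors, rose by 0.62 (limma adjusted p = 0.0366) at a signal below the lower quartile in 10 of 12 samples. Zbp1, a sensor of Z-form nucleic acid, differed by 0.40 and was not called.

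Of the 4 transcription factors 3 rose, and the median change of the 4 was 1.20. Irf1, which interferon gamma induces, read 7.82, 8.29 and 8.11 in wild type, 9.94, 9.28 and 9.83 in Alport vehicle, 8.85, 8.22 and 7.95 under losartan and 9.55, 9.02 and 8.43 under metformin. All Alport vehicle samples exceeded wild type and losartan, and metformin lay above wild type and reached into the Alport vehicle range in sample 1. The rise was 1.61 ± 0.28 (log2, SE, limma adjusted p = 0.000785).

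Irf7, the factor that amplifies production of interferon alpha, read 6.08, 6.22 and 5.95 in wild type, 6.82, 7.45 and 7.85 in Alport vehicle, 7.22, 6.89 and 6.30 under losartan and 8.74, 7.40 and 7.62 under metformin. All 9 Alport samples exceeded all wild type samples, and metformin exceeded losartan without overlap. The rise in Alport vehicle was 1.29 ± 0.32 (log2, SE, limma adjusted p = 0.011). Irf9, the DNA-binding part of the type I complex, rose by 1.10 (limma adjusted p = 0.0135), with wild type sample 2 at 7.16 just above Alport vehicle sample 1 at 7.12. Stat2, its partner, read 0.65 higher without overlap and missed the threshold (limma adjusted p = 0.0536).

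Of the 6 GTPases only Gbp3 was called, and 5 of 6 had every Alport vehicle sample above every wild type sample, as did 14.2% of all probe sets. Gbp3, a guanylate-binding protein of the family that coats microbe-bearing vacuoles, read 6.12, 7.06 and 6.46 in wild type, 8.03, 8.38 and 8.69 in Alport vehicle, 7.97, 7.56 and 7.32 under losartan and 8.64, 7.98 and 7.41 under metformin. All 9 Alport samples were above wild type. Its rise of 1.82 ± 0.30 (log2, SE, limma adjusted p = 0.000459) was the largest of the list.

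Gbp2 read 8.23, 8.44 and 7.61 in wild type, 8.76, 9.23 and 9.70 in Alport vehicle, 9.02, 8.37 and 8.52 under losartan and 10.20, 9.09 and 7.88 under metformin. Alport vehicle cleared wild type, and the metformin samples reached from the wild type range to above every other sample. The difference was 1.14 ± 0.42 (log2, SE, limma adjusted p = 0.0791). Gbp7 read 8.68, 9.04 and 8.90 in wild type, 9.40, 9.79 and 9.25 in Alport vehicle, 8.89, 8.53 and 9.23 under losartan and 9.99, 9.15 and 8.98 under metformin. Alport vehicle again cleared wild type, by 0.61 ± 0.25 (log2, SE, limma adjusted p = 0.123). The guanylate-binding proteins are close in sequence, so their probe sets may share signal.

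The immunity-related GTPases are a separate family that marks and disrupts vacuoles. Irgm1, which controls the others, read 10.23, 10.01 and 10.13 in wild type, 10.43, 10.80 and 10.88 in Alport vehicle, 10.25, 10.35 and 10.44 under losartan and 11.63, 10.48 and 10.38 under metformin. The wild type samples were the lowest of all 12, and metformin sample 1 was the highest. Its difference in Alport vehicle was 0.58 (limma adjusted p = 0.151), and that of Iigp1 was 0.87 (limma adjusted p = 0.148), both without overlap. Igtp (Irgm3) read 7.34, 7.11 and 7.41 in wild type, 6.91, 7.34 and 7.54 in Alport vehicle, 7.07, 6.60 and 6.85 under losartan and 8.96, 7.67 and 7.08 under metformin. Here Alport vehicle overlapped wild type, with a change of -0.02 ± 0.33 (log2, SE, limma adjusted p = 0.978), and losartan lay below every wild type sample.

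**Figure D3:**
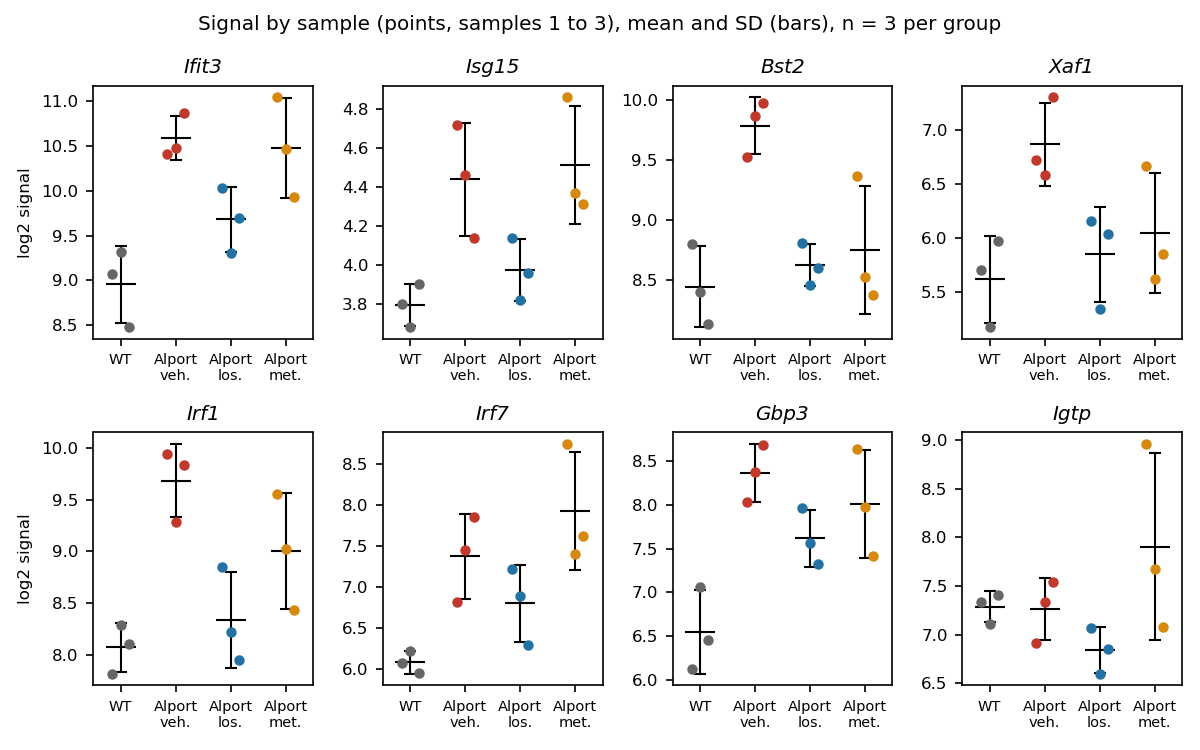
Log2 signal of 8 listed genes in each sample (points, samples 1 to 3 from left to right), with the mean (long bar) and SD (error bar) of 3 samples per group; each panel has its own scale, which does not start at 0. Alport vehicle exceeds wild type without overlap in all panels but Igtp, and losartan lies below Alport vehicle without overlap in Ifit3, Bst2, Xaf1, Irf1 and Gbp3.

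Under losartan 3 of the 34 genes fell against Alport vehicle and none rose, with 4.11% of all probe sets called down. Irf1 fell by 1.34 on the log2 scale (SE 0.28, limma adjusted p = 0.00829), Bst2 by 1.16 (SE 0.24, limma adjusted p = 0.00882) and Xaf1 by 1.02 (SE 0.29, limma adjusted p = 0.044). The unadjusted p was under 0.05 for 12 of 34, and 29 of 34 lay below 0. In 10 of 34 every losartan sample was below every Alport vehicle sample, as in 11.3% of all probe sets, and the list's median was -0.42 against 0.01 for all probe sets. The count of 3 rose to 5 without Alport vehicle sample 2 and without losartan sample 1. Over all probe sets the calls in either direction went from 1755 to 2073 and 1496 in these fits. Xaf1 was not called without Alport vehicle sample 1 or 3, or without losartan sample 2 or 3. Its call was also lost with each sample centred on its median, new quantile normalization and array weights (limma adjusted p = 0.0568, 0.0617 and 0.0581).

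Just short of the threshold lay Stat2 at -0.73 (limma adjusted p = 0.0513), Ifit3 at -0.91 (limma adjusted p = 0.0561) and Dhx58 at -0.61 (limma adjusted p = 0.0621). No GTPase was called, but all 6 lay below 0, with a median of -0.60 and values from -0.75 (Gbp3) to -0.36 (Irgm1). The genes that lay above 0 under losartan were Rsad2 (0.49), Oas1a (0.37), Cmpk2 (0.21), Oas2 (0.03) and Oas3 (0.03), and none of them had risen in Alport vehicle. Against wild type no listed gene was called in the losartan group, where 0.401% of probe sets were called up. At an unadjusted p under 0.05 there were 5 of 34, and the largest difference was that of Gbp3 at 1.07 (limma adjusted p = 0.144). A p that misses the threshold does not show that the groups were alike.

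Under metformin 1 of the 34 genes fell against Alport vehicle, with 2.27% of all probe sets called down and none of the list up. Bst2 fell by 1.03 on the log2 scale (SE 0.24, limma adjusted p = 0.0237), and the call was lost without Alport vehicle sample 3 and without metformin sample 2 or 3. The median of the list was -0.11 against -0.01 for all probe sets, 22 of 34 lay below 0, and 2 (Bst2 and Stat2) lay below without overlap, as did 9.88% of all probe sets. Xaf1 differed by -0.82 (limma adjusted p = 0.128) and was called without metformin sample 1, at -1.13 (limma adjusted p = 0.0376). Without that sample the median of the list was -0.31, and without metformin sample 3 it was 0.04.

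Ifit3 (-0.11), Mx2 (-0.01), Isg15 (0.07) and Ddx58 (-0.11) differed little between metformin and Alport vehicle, while Irf7 (0.55) and Igtp (0.64) read higher without a call. Against wild type 5 of 34 genes rose in the metformin group, with 2.7% of probe sets called up. They were Irf7 at 1.84 (limma adjusted p = 0.0045), Ifit3 at 1.52 (limma adjusted p = 0.00538), Gbp3 at 1.46 (limma adjusted p = 0.0106), Mx2 at 0.69 (limma adjusted p = 0.0213) and Isg15 at 0.72 (limma adjusted p = 0.0456). That count depended on single samples: it was 2 without wild type sample 1, wild type sample 3 or metformin sample 1, 3 without wild type sample 2, and 9 without metformin sample 3.

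**Figure D4:**
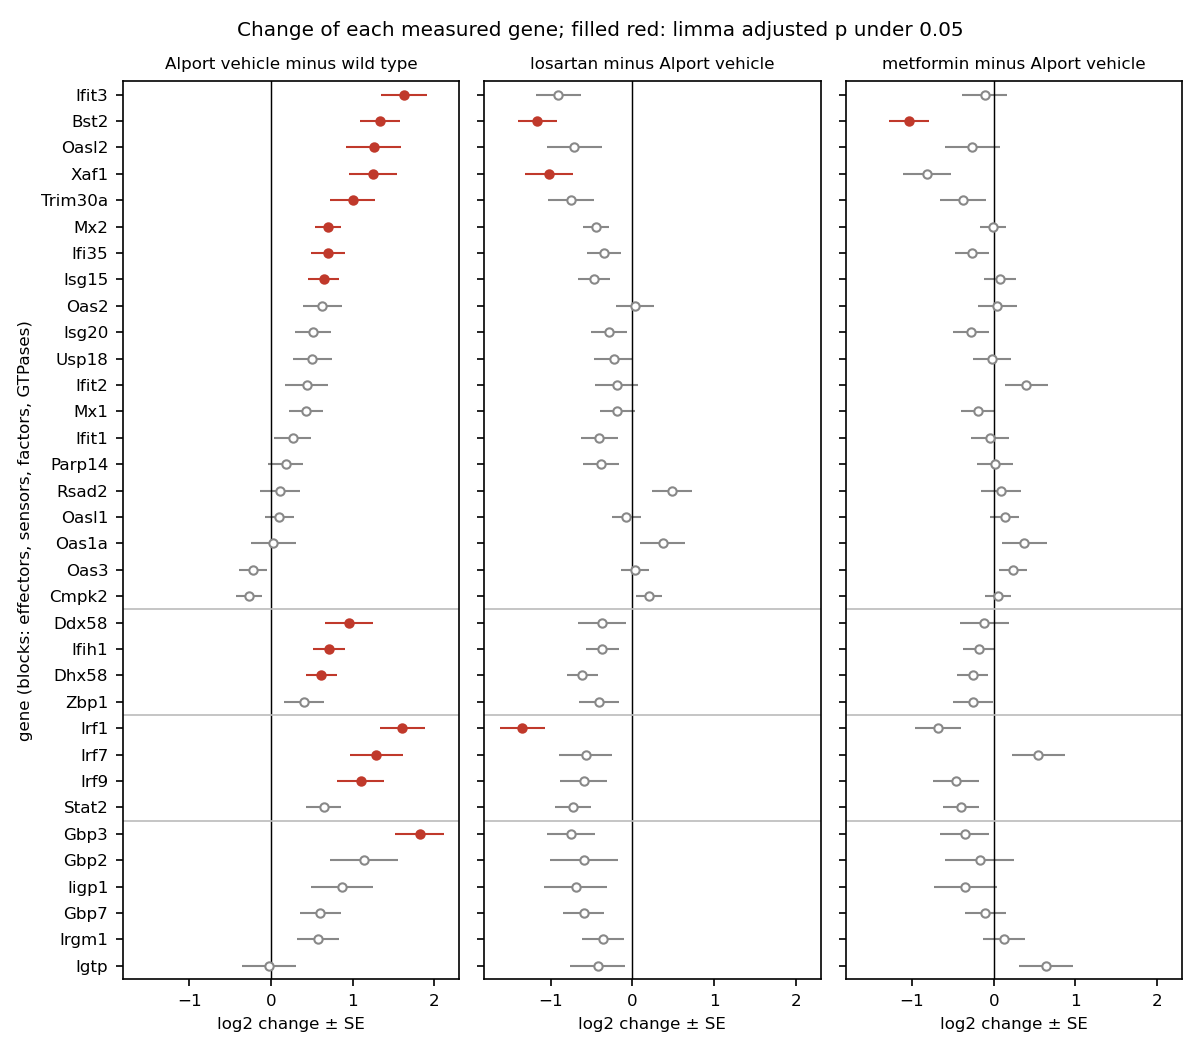
Log2 change with its standard error for the 34 measured genes in 3 comparisons, with genes in blocks by role and ordered by their change in Alport vehicle against wild type, and filled red points for a limma adjusted p under 0.05. The first panel holds 15 red points, the losartan panel 3 and the metformin panel 1, and the same Alport vehicle samples enter all 3 panels.

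Every drug comparison with Alport vehicle uses the same 3 vehicle samples that define the rise, so their values are given side by side and not as independent evidence. Over the 15 genes that rose, the median change was -0.61 for losartan and -0.26 for metformin against Alport vehicle, and 0.35 and 0.69 against wild type. Set directly against each other, metformin and losartan differed in none of the 34 genes by limma, where 0.045% of probe sets were called in either direction. The unadjusted p was under 0.05 for 7 of 34, 30 of 34 read higher under metformin, and the median difference was 0.34 against -0.01 for all probe sets. The largest were Irf7 at 1.12 (limma adjusted p = 0.336), Igtp at 1.06 (limma adjusted p = 0.389) and Ifit3 at 0.80 (limma adjusted p = 0.441). Igtp was called without metformin sample 3, at 1.48 (limma adjusted p = 0.0461). In that fit 91 of all probe sets were called in either direction, against 10 in the main fit.

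The metformin samples disagreed among themselves on these genes. Metformin sample 1 was the highest of its group in 25 of 34 genes (73.5%), against 34.2% of all probe sets, and in all 6 GTPases. The median SD within the metformin group was 0.43 for the list and 0.83 for the GTPases, against 0.20 for all probe sets. In the other groups the list's median SD was 0.24 (wild type), 0.33 (Alport vehicle) and 0.24 (losartan). For the GTPases the median difference from the wild type mean was 1.59, 0.56 and -0.05 in metformin samples 1 to 3, against 0.52, 1.03 and 0.86 in Alport vehicle and 0.20, 0.09 and 0.34 under losartan. By these medians metformin sample 1 lay above every Alport vehicle sample and metformin sample 3 near wild type. Gbp3 was an exception, at 8.64 in metformin sample 1, below Alport vehicle sample 3 at 8.69, and at 7.41 in metformin sample 3, above every wild type sample.

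For the type I antiviral genes the same medians were 0.70, 0.40 and 0.28 under metformin, 0.53, 0.42 and 0.73 in Alport vehicle and 0.35, 0.15 and 0.21 under losartan. All losartan samples were below all Alport vehicle samples, and metformin spread across both. The macrophage markers followed the same order among the metformin samples, at 2.74, 1.82 and 0.96. So did the T cell and natural killer cell markers (0.28, 0.14 and 0.02) and the neutrophil markers (0.17, -0.01 and -0.26). The conventional dendritic cell markers (0.22, 0.37 and -0.01), the B cell and plasma cell markers (0.11, 0.18 and -0.15) and the plasmacytoid dendritic cell markers (-0.17, -0.08 and -0.02) did not, nor did the signal of Ifng, at 3.74, 4.16 and 3.69. Their part in the spread of the listed genes was not tested.

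**Figure D5:**
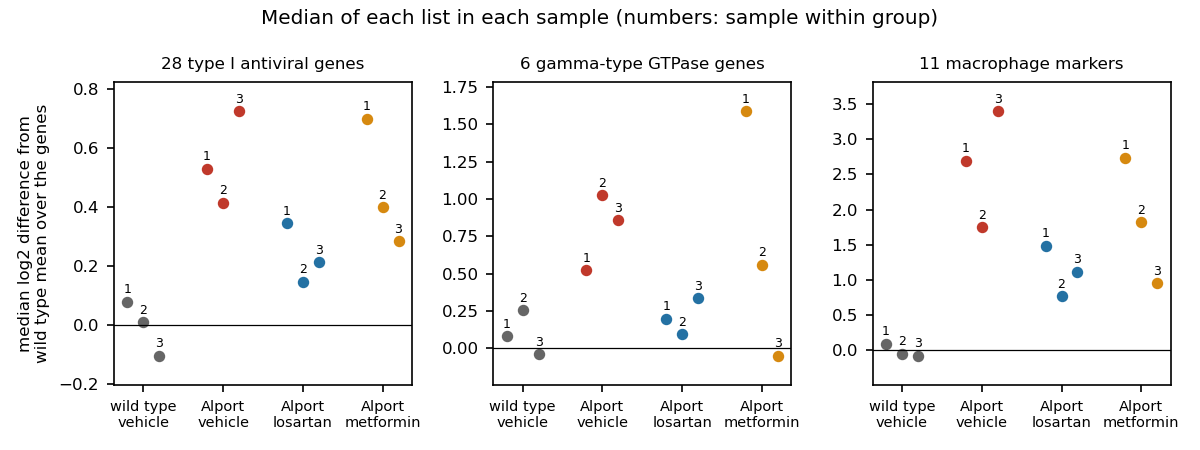
Median log2 difference from the wild type mean in each sample (points, numbered within group) for the 28 type I antiviral genes, the 6 GTPases and 11 macrophage markers; the 3 panels have different scales. Metformin sample 1 is the highest metformin sample in all 3 panels, and in the GTPase panel the metformin samples run from 1.59 to -0.05.

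Of 19 measured interferon genes none rose in Alport vehicle and 1 fell, with 8.43% of all probe sets called up and 7.71% called down. The gene that fell was Ifna1, by 0.89 on the log2 scale from a wild type mean of 4.88 (limma adjusted p = 0.0397). Ifng read 3.44, 3.39 and 3.63 in wild type and 4.47, 4.24 and 3.74 in Alport vehicle, without overlap. The difference of 0.66 missed the threshold (limma adjusted p = 0.0689), and the gene was below the lower quartile in 9 of 12 samples. Ifnb1 differed by 0.11. At an unadjusted limma p under 0.05, 1 of the 19 was higher (Ifng) and 2 were lower (Ifna1 and Ifnl2). Of the 19 genes 6 were below the lower quartile in all 12 samples.

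Of 9 measured receptor chains and kinases 4 rose: Ifngr2 by 1.41 (limma adjusted p = 0.000204), Ifnar2 by 0.89 (limma adjusted p = 0.00281), Ifnar1 by 0.60 (limma adjusted p = 0.0262) and Ifngr1 by 0.93 (limma adjusted p = 0.0406). These are all 4 chains of the type I and gamma receptors. Of all probe sets 8.43% were called up in this comparison. Ifngr2 read 9.58, 9.91 and 9.58 in wild type, 11.00, 10.87 and 11.43 in Alport vehicle, 10.13, 10.01 and 9.82 under losartan and 10.67, 10.57 and 9.97 under metformin. Its 3 Alport vehicle samples exceeded all other samples. Ifngr2 fell by 1.11 and Ifnar2 by 0.70 under losartan (limma adjusted p = 0.00467 and 0.0258). Ifnar2 fell by 0.88 under metformin (limma adjusted p = 0.0123), where Ifngr2 differed by -0.70 (limma adjusted p = 0.0685).

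Of 17 measured genes that sense nucleic acid or relay it to interferon production 5 rose, led by Sting1 at 2.79 and Tlr7 at 2.77 (limma adjusted p = 1.83e-05 and 9.66e-05). Sting1, the adaptor for cytosolic DNA, read 4.32, 4.38 and 4.81 in wild type, 7.39, 6.72 and 7.77 in Alport vehicle, 5.97, 5.55 and 5.64 under losartan and 6.91, 6.57 and 5.52 under metformin. All 9 Alport samples exceeded wild type, and losartan lay below Alport vehicle without overlap. Under losartan 4 of the 17 fell, Sting1 by 1.57 (limma adjusted p = 0.0063). Under metformin none of the 17 was called by limma, and 3 had an unadjusted p under 0.05. None of 8 measured negative regulators of the pathway was called in Alport vehicle, where 2 had an unadjusted p under 0.05. In that comparison 16.1% of all probe sets were called in either direction and 8.43% were called up. The share called down under losartan was 4.11%, and the share called in either direction under metformin was 4.94%.

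Among 48 other measured interferon-stimulated genes 24 rose and 2 fell in Alport vehicle, with a median of 0.66. Of all probe sets 8.43% were called up and 7.71% down. Ifitm3, which blocks virus entry at membranes, read 10.05, 10.02 and 10.09 in wild type, 12.59, 11.95 and 12.78 in Alport vehicle, 11.33, 10.92 and 10.60 under losartan and 11.38, 11.22 and 10.74 under metformin. The 4 groups separated into wild type, both drug groups and Alport vehicle, with no overlap between these levels. Ifitm3 rose by 2.39 (limma adjusted p = 6.81e-06) and fell by 1.49 under losartan and 1.33 under metformin (limma adjusted p = 0.00158 and 0.00568). Cxcl10, a chemokine for activated T cells, read 5.95, 6.41 and 5.64 in wild type, 8.82, 8.41 and 9.03 in Alport vehicle, 7.05, 6.50 and 6.56 under losartan and 8.97, 8.73 and 7.19 under metformin. It rose by 2.75 (limma adjusted p = 6.29e-05), fell by 2.05 under losartan (limma adjusted p = 0.00274) and differed by -0.46 under metformin, whose samples 1 and 2 lay in the Alport vehicle range. Over these 48 genes 10 fell under losartan (median -0.40) and 4 under metformin (median -0.16), with 4.11% and 2.27% of all probe sets called down.

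Macrophage markers rose in the same samples as the listed genes. Of 11 macrophage markers 9 rose in Alport vehicle, 6 fell under losartan and 1 under metformin. The shares of all probe sets called in these directions were 8.43%, 4.11% and 2.27%. The mean level of the macrophage markers was 6.51 to 6.80 in wild type, 8.34 to 9.68 in Alport vehicle, 7.59 to 7.98 under losartan and 7.84 to 9.0 under metformin. Lyz2 (lysozyme) rose by 6.31 and C1qc (complement) by 2.82 (limma adjusted p = 7.1e-07 and 1.99e-05), while Csf1r, a receptor of the same cells, differed by 0.51 (limma adjusted p = 0.0557). Of 13 T cell and natural killer cell markers 2 rose (Cd3e and Cd4), of 6 conventional dendritic cell markers 2, and of 5 markers of plasmacytoid dendritic cells, known as strong makers of interferon alpha, none. Of those 5, Ccr9 and Spib were below the lower quartile in all 12 samples. With 8.43% of all probe sets called up in this comparison, none of 5 does not set these markers apart. Of 5 B cell and plasma cell markers 1 rose, Jchain (the joining chain of secreted antibodies), by 2.76, and against Alport vehicle it fell by 3.00 under losartan and 2.63 under metformin (limma adjusted p = 8.47e-06, 0.000117 and 0.000207). In Alport vehicle 9 of 10 proximal tubule markers fell, with 7.71% of all probe sets called down. The part of these cell types in the change of the listed genes was not tested.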

How the data were processed

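Whole kidney RNA was hybridised to Affymetrix Clariom S arrays, per the labels. The deposited values are log2 signals per probe set. The submitters' processing notes name the Transcriptome Analysis Console 4.0, and the normalization method is not given in the sources used here, so a shift between arrays could remain in the values. Of 22206 probe sets, 19572 had 1 symbol in the platform annotation and 2634 had none.

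No value was transformed, dropped or imputed. limma 3.58.1 (R 4.3.3) fitted a mean for each of the 4 groups over all 12 samples, with 8 residual degrees of freedom. Empirical Bayes p-values were adjusted by Benjamini-Hochberg over all 22206 probe sets, and genes with an adjusted p under 0.05 were called. The precision is limited by 3 samples per group (median SE 0.20). Same-numbered samples did not deviate together, so the replicate number entered no main fit. Alternatives were other scalings, a filter on dim probe sets, other variance settings, a replicate block, a fit of only the groups compared, and each sample left out.

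The listed genes and the pathway and marker lists were chosen with earlier results of these data known. Values in every sample were given for genes chosen by their absolute test statistic in Alport vehicle against wild type. These were the largest of each role and the smallest of the whole list. The genes with the highest and lowest mean signals were given in the same way. Isg15, Rsad2, Ifit1, Ifngr2, Sting1, Ifitm3 and Cxcl10 were given per sample after their values were seen. Promoter windows came from RefSeq.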

Additional observations from a re-analysis of the deposited data

How the results depend on the processing

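The arrays' number, 3 per group, limits every count. In Alport vehicle against wild type 6 of 15 listed genes kept their call under all 13 alternatives, 2 of 3 did so for losartan and 0 of 1 for metformin against Alport vehicle, and 2 of 5 for metformin against wild type. No listed gene reversed its direction while called. The count of 15 ranged from 7 to 14 with a sample left out, and the median log2 change went from 0.64 to 0.50 with each sample centred on its median. For losartan against Alport vehicle the count of 3 became 5 with the dimmest probe sets left out and 5 with a trended robust variance prior, and ranged from 2 to 5 with a sample left out. For metformin against Alport vehicle the count of 1 became 0 in the fit of only the groups compared, which called 410 of all 22206 probe sets. With a sample left out the count ranged from 0 to 2, and the median ranged from -0.31 to 0.037. Metformin against losartan ranged from 0 to 1, and metformin against wild type from 2 to 9. With a sample left out the calls over all probe sets moved too. They ranged from 2549 to 3756 for Alport vehicle against wild type (main fit 3582). Against Alport vehicle they ranged from 716 to 2073 for losartan (main fit 1755) and from 266 to 1320 for metformin (main fit 1096). For metformin they ranged from 5 to 91 against losartan (main fit 10) and from 346 to 1019 against wild type (main fit 928). The causes of these moves were not tested. Median centring also moved the share of all calls that were up from 48.0% to 63.1% for losartan and from 54.0% to 68.5% for metformin against Alport vehicle, and from 64.5% to 51.4% for metformin against wild type. Each measured gene had 1 probe set, so the choice of probe set changed nothing.

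The replicate numbers of the titles did not pair the samples: of 18 same-numbered pairs 0 had a correlation of deviations over 0.1, with a range from -0.14 to 0.078, and in 8 of 36 combinations a sample correlated best with its own number. With the replicate number as a block the counts were 14 for Alport vehicle against wild type (without Dhx58, limma adjusted p = 0.0551), 3 for losartan and 1 for metformin against Alport vehicle, 0 for metformin against losartan, 0 for losartan against wild type and 6 for metformin against wild type (with Ifit2, limma adjusted p = 0.0482).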
